A study of Mus musculus with 24 samples.

Results

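The H3K9ac regions of mouse chromosome 11 are the stretches of that chromosome where acetylation of histone H3 at lysine 9 was called in at least 1 of 8 libraries. They were chosen by position alone: any peaks sharing at least 1 bp, from whichever library, were joined into one region, and those on chromosome 11 were kept, 2729 of 26034 regions in all. The chromosome itself was proposed because many regions gained in the null clone of isolate pair 4 lay on it, so values that compare the null and fx/fx clones of pair 4 are given as a description with no test. The background is the 21109 regions of the other autosomes except chromosome 8, 17 chromosomes in all.

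The libraries came from day 5 embryoid bodies, aggregates in which mouse embryonic stem cells differentiate, of strain C57BL/6 per the labels. The fx/fx clones 4_1 and 6_1 carry the floxed Gcn5 allele in homozygous form, and the Gcn5-/- clones 4_C2 and 6_C4, called null here, lack the gene. Clones 4_1 and 4_C2 form isolate pair 4, clones 6_1 and 6_C4 form isolate pair 6, and each clone has 2 H3K9ac libraries. Each genotype is thus represented by 2 clones, and the labels name no separate cultures, so p-values measure the spread between these libraries, which may be technical. The sources used here do not name the recombinase that removed the floxed part or the exons removed. The 16 total H3 and input DNA samples were not used here, so the number of copies of chromosome 11 in each clone was not measured.

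H3K9ac is laid down by acetyltransferases such as Gcn5, the catalytic subunit of the SAGA and ATAC complexes, and it is found mainly around the starts of transcribed genes. Chromosome 11 of the mouse is rich in genes and carries Kat2a, which encodes Gcn5, together with the Hoxb cluster, Trp53 and clusters of keratin, chemokine and myosin heavy chain genes. A called peak marks where signal passed the peak caller's threshold, and the length it covers is a width and not a strength of acetylation.

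The promoters below are that of Kat2a and those of genes whose start lay under a region that set clones apart. Kat2a is the gene whose product was removed. Grb10 and Tha1 are the genes with a peak at their start in all fx/fx and no null library. Irgm2 had a peak in both 4_C2 libraries and no other library, and Tex19.1 in 4_C2 and 6_1 only. Each sequence is the RefSeq promoter window of assembly GRCm38.p6, 300 bases from 250 before to 50 after the annotated start, written 5′ to 3′ on the gene's strand, with every CpG (the motif CG, the same on both strands) in capitals.
Kat2a: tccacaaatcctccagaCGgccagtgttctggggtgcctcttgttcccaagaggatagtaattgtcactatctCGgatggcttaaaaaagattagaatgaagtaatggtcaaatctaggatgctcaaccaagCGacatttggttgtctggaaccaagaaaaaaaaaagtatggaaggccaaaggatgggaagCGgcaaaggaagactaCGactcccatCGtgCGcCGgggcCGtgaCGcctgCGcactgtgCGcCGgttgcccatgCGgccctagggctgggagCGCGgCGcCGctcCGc
Grb10: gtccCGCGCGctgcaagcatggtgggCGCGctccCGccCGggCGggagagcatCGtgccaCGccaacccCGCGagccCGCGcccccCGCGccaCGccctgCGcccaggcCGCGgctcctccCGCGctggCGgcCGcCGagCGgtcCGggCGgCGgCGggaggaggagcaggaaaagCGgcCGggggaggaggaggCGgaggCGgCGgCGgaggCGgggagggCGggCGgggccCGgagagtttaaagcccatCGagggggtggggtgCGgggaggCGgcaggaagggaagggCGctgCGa
Tha1: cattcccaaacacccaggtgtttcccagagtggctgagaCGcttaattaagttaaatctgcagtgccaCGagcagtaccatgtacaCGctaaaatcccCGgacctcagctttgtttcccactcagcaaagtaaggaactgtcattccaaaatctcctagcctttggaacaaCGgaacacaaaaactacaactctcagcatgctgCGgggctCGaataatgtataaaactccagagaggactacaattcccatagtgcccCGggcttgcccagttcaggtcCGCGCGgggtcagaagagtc
Irgm2: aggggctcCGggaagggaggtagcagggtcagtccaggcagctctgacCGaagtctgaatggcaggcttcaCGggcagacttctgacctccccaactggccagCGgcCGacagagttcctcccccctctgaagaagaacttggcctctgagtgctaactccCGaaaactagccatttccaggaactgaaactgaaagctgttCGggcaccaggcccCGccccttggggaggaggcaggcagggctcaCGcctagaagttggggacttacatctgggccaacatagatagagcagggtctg
Tex19.1: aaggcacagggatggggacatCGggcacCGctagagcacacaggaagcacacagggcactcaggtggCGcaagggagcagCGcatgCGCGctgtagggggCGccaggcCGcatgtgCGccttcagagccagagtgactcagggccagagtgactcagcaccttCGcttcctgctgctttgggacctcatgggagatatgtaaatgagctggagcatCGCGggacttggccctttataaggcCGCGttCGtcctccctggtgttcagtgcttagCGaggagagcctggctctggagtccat
These windows lie on chromosome 11 of mm10 at 100712418 to 100712717 on the minus strand for Kat2a, 12037371 to 12037670 on the minus strand for Grb10 and 117873477 to 117873776 on the minus strand for Tha1. The Irgm2 window lies at 58214727 to 58215026 and the Tex19.1 window at 121145893 to 121146192, both on the plus strand. They hold 19 CpG in Kat2a, 45 in Grb10, 11 in Tha1, 9 in Irgm2 and 16 in Tex19.1. A second annotated start of Grb10, 9 CpG in its window, had no peak in any library. Of 1561 chromosome 11 starts with a promoter in the RefSeq table, 97.1% held at least 1 CpG, against 95.4% of 17654 starts on the other autosomes. The median was 24 CpG at the 912 starts with a peak in all 8 libraries, 11 at the 203 with a peak in 1 to 7 libraries and 3 at the 446 with none. On the other autosomes the same medians were 24, 14 and 3. The motif CACGTG, an E-box that reads the same on both strands, was in 9.74% of the chromosome 11 windows and 7.71% of those elsewhere, and in none of the windows printed here.

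Acetylation at the Kat2a start was called in every library, fx/fx and null. The region (chr11:100710715-100715040 of mm10, shared with the start of Hspb9 and an end of Rab5c) was covered over 3522 and 3416 bp in 4_1, 3087 and 2975 bp in 4_C2, 4024 and 3558 bp in 6_1, and 3209 and 3258 bp in 6_C4. Each null library lay below each fx/fx library of its pair, and in the model over all 8 libraries the relative width differed by -0.08 ± 0.09 on the log2 scale (SE, limma adjusted p = 0.876). Peaks at a gene's start do not show whether a part further inside was removed, so this region does not check the genotype labels.

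Across libraries, 1341 to 1809 peaks were called on chromosome 11, and they covered 3032 to 4442 kb. Its share of all peaks on the autosomes except 8 was 10.98% and 10.97% in 4_1, 13.05% and 11.97% in 4_C2, 9.39% and 9.42% in 6_1, and 9.42% and 9.85% in 6_C4. The clones of pair 4 thus lay above those of pair 6, with no overlap, and 4_C2 lay highest. Counted in covered base pairs the share was 12.7% and 12.5% in 4_1, 15.8% and 14.8% in 4_C2, 9.80% and 10.1% in 6_1, and 9.90% and 10.5% in 6_C4, in the same order of clones. Within pair 4 the share of peaks was 1.538 percentage points higher in the null clone (12.51% ± 0.765 against 10.98% ± 0.00578, SD, n = 2 each), where the other autosomes ran from -0.52 to 0.078. It was 0.996 points without 4_C2 replicate 1, the library with the most chromosome 11 peaks, and 2.079 without replicate 2. Within pair 6 the difference was 0.235 points (9.64% ± 0.300 against 9.40% ± 0.0232, SD, n = 2 each), the highest of 18 autosomes, where the others ran from -0.191 to 0.163. The exact permutation test on pair 6, two-sided, gave p = 0.333, the smallest that 2 against 2 libraries can give, so this design cannot pass 0.05. Without 6_C4 replicate 2 the pair 6 difference was 0.022 points, and 0.447 without 6_C4 replicate 1. With every list cut to the same length by width it was 0.003 points, and counted in covered base pairs 0.227 points.

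**Figure D1:**
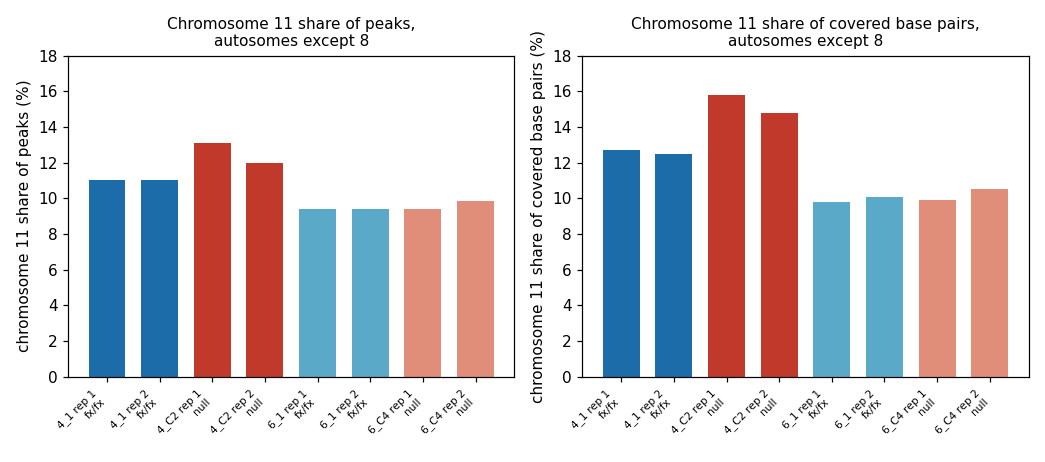
Chromosome 11 share of all H3K9ac peaks (left) and of all covered base pairs (right) on the autosomes except 8, in percent, 1 bar per library, coloured by clone. Shares of peaks were 11.97% and 13.05% in the 4_C2 libraries, 10.97% and 10.98% in the 4_1 libraries and 9.39% to 9.85% in the libraries of pair 6.

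Regions found in every library can be compared by width without regard to presence. Of the 2729 regions 960 (35.2%) were in all 8 lists, against 40.2% on the other autosomes. For each library, the log2 covered length of each region was centred on the median of the other autosomes and then set against the region's mean over the 8 libraries. A value of 0 thus stands for that region's own mean, and a negative one does not mean narrower than other chromosomes. In 6_1 the median chromosome 11 peak was 1881 and 2175 bp, against 1798 and 2029 bp elsewhere. The 8 values of a region sum to 0, so high values in some libraries bring low values in others. The median over the 960 regions was 0.059 and 0.048 in 4_1, 0.165 and 0.239 in 4_C2, -0.146 and -0.127 in 6_1, and -0.147 and -0.110 in 6_C4. The 4_C2 libraries were highest, the 4_1 libraries came next, and the 4 libraries of pair 6 were lowest and overlapped between genotypes. In 4_C2 and in both pair 6 clones no other autosome reached as far from 0 in any library, while in 4_1 chromosome 1 lay slightly above chromosome 11, at 0.068 and 0.062.

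**Figure D2:**
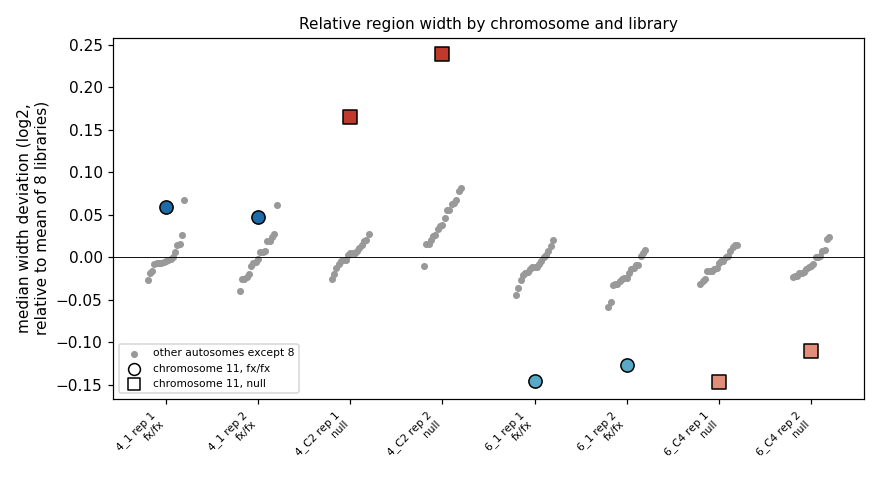
Median width deviation of the regions found in all 8 libraries, in log2 units relative to the mean of the 8 libraries and centred on the other autosomes, by library. Grey points are the 17 other autosomes except 8 and large symbols are chromosome 11, which lay at 0.165 and 0.239 in 4_C2 and between -0.147 and -0.110 in the 4 libraries of pair 6.

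Between clones, the median chromosome 11 region was wider in 4_C2 than in 4_1 by 0.14 (log2), with 80.3% of regions wider. The medians of the other autosomes ran from -0.07 to 0.04. Both 4_C2 libraries lay above both 4_1 libraries at 40.2% of chromosome 11 regions, where the background was 21.9%. This contrast is close to the one that singled out the chromosome, and nothing is read from that count. The change is a relative one. Before centring the median was -0.009 on chromosome 11, and it was the median of the other autosomes that lay lower in 4_C2 than in 4_1. Without 4_C2 replicate 1 the centred change was 0.190, and 0.116 without replicate 2.

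Within pair 6, whose libraries had no part in the choice of the chromosome, the same difference between null and fx/fx was 0.010 (-0.129 ± 0.0267 against -0.137 ± 0.0137 as means of the library medians, SD, n = 2 each). The exact permutation p was 1.00, and 0.333 is the smallest this design allows. It was -0.112 before centring and -0.008 without 6_C4 replicate 2, so its sign turned with either choice. Both null libraries lay above both fx/fx libraries at 20.1% of regions and below at 14.3%. The background shares were 21.0% above and 15.1% below, so both lay near the background.

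Between the fx/fx clones, the median chromosome 11 region was wider in 4_1 than in 6_1 by 0.20, with 79.3% of regions wider, where the other autosomes ran from -0.03 to 0.11. Both 4_1 libraries lay above both 6_1 libraries at 55.0% of regions (background 28.2%). Before centring the sign turned, to -0.063, so this too is a width relative to the other autosomes. Between the null clones the difference was 0.33, with 92.3% wider, and the other autosomes ran from -0.03 to 0.08. Both 4_C2 libraries lay above both 6_C4 libraries at 70.0% of regions (background 27.5%). These comparisons hold 1 clone a side and libraries that were used to choose the chromosome, so they carry no test. With 1 clone on each side, a difference between clones cannot be told apart from one between isolate pairs.

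Ranking the 4 clones at each of the 960 regions, 4_C2 was widest at 75.5%, 4_1 at 16.1%, 6_1 at 5.42% and 6_C4 at 2.92%. On the other autosomes 4_C2 was widest at 35.5% and the rest at 19.8% to 23.2%. All 4 libraries of pair 4 lay above all 4 of pair 6 at 34.0% of chromosome 11 regions and the reverse held at 0.312%, against 8.58% and 6.73% elsewhere.

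The shift ran along the whole chromosome. In each of 25 bins of 5 Mb the median deviation of 4_C2 was above 0, from 0.16 to 0.29, that of 4_1 was above 0, from 0.02 to 0.13, and those of 6_1 and 6_C4 were below 0, from -0.28 to -0.10 and from -0.23 to -0.06. The lowest values of both pair 6 clones came from bins with fewer than 20 regions found in all 8 libraries. Over the 18 bins with at least 20 such regions the ranges were 0.16 to 0.25 in 4_C2 and 0.02 to 0.12 in 4_1. They were -0.17 to -0.10 in 6_1 and -0.18 to -0.06 in 6_C4. Library by library, both 4_C2 libraries were above 0 in all 25 bins and all 4 libraries of pair 6 below 0 in all 25. Of 165 such bins on the other autosomes, 0 reached the chromosome 11 median of 4_C2, 0.20, and 0 went as low as the medians of 6_1, -0.14, and 6_C4, -0.12. In 4_1, 4 of the 165 bins reached its chromosome 11 median of 0.06. The deviations of a region sum to 0 over the libraries, so high values in pair 4 bring low values in pair 6. The low pair 6 bins are thus not a separate observation.

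**Figure D3:**
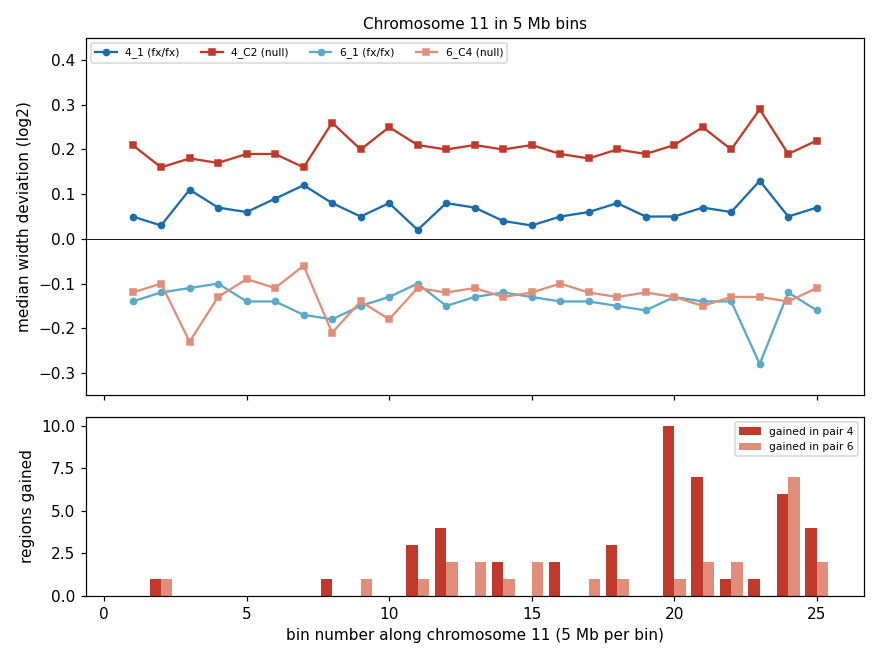
Upper panel, median width deviation (log2) of the regions found in all 8 libraries in each 5 Mb bin of chromosome 11, 1 line per clone. Lower panel, number of regions gained in the null clone of pair 4 or pair 6 per bin; 4_C2 stayed between 0.16 and 0.29 along the chromosome while the gained regions gathered in the later bins, with 10 in bin 20.

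The deviation was of like size in each class of region examined. Among the narrowest regions (226, mean covered length 879.0 to 1955 bp) it was 0.23 in 4_C2, among those of middle width (298) 0.21, and among the widest (436, 2709 to 13047 bp) 0.19. In 6_1 the same classes gave -0.15, -0.14 and -0.12, and in 6_C4 -0.14, -0.13 and -0.11. These low values are not separate from the high ones of 4_C2, since the deviations of a region balance across the libraries. At the 722 regions with an annotated start the 4_C2 value was 0.20, and at the 238 away from one it was 0.21. On the other autosomes these classes lay between -0.02 and 0.05 in 4_C2.

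Of the chromosome 11 regions, 53.9% and 46.2% had a peak in the 4_1 libraries, 63.3% and 46.0% in 4_C2, 60.5% and 55.8% in 6_1, and 56.0% and 54.8% in 6_C4. On the other autosomes the shares were 57.5% and 49.5%, 55.4% and 44.4%, 78.7% and 70.9%, and 71.2% and 66.2%. In both 4_C2 libraries the chromosome 11 share was above that of the other autosomes, and in the 6 other libraries it was below, furthest in 6_1. Regions enter these shares through any library that has them. Those of 4_C2 replicate 1 alone made up 11.2% of chromosome 11 regions against 1.89% elsewhere, and those of replicate 2 alone 2.64% against 0.412%. Such regions raise the 4_C2 shares and lower the others by construction, so nothing is read from this order. Regions found in a single library made up 932 (34.2%) of chromosome 11 regions against 24.4% elsewhere, and 307 of them came from 4_C2 replicate 1.

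Some regions were found in both libraries of 1 clone and nowhere else. Those of 4_C2 are by definition among the regions gained in pair 4, which singled out the chromosome, so nothing is read from their number. Of 30 such regions of 4_C2 on the autosomes except 8, 21 were on chromosome 11, or 0.770% of its regions, against a background of 0.0426%. Of 15 regions of 4_1, 6 were on chromosome 11 (0.220% of its regions, background 0.0426%). Of 428 regions of 6_1, 22 were (0.806%, background 1.92%), and of 115 of 6_C4, 8 were (0.293%, background 0.507%). The 4_C2 count was 47 when every list was cut to the same length by width. It was 93 without 4_C2 replicate 1 and 328 without replicate 2, settings under which a single library defines it. Regions in all 4 libraries of pair 4 and none of pair 6 numbered 3 on chromosome 11 (background 0.0332%), at the end of Epn3 and Mycbpap, in Abca5 and in Kctd2. Those in all of pair 6 and none of pair 4 numbered 26, or 0.953%, against 3.03%. The lists of pair 6 were longer, with 17849 to 20809 peaks on all chromosomes against 12041 to 15315 in pair 4. The part of list length in these pair counts was not tested.

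A region was called gained in a pair when both null libraries and neither fx/fx library had it, and lost in the reverse case. In pair 4, 45 of the 2157 chromosome 11 regions with a peak in the pair were gained, 2.09% against a background of 0.717%. This is the count that singled out the chromosome. It made up 31.2% of the 144 regions gained on the autosomes except 8, and 21.0% without 4_1 replicate 1. The other autosomes ran from 0.371% on chromosome 6 to 1.43% on chromosome 19. Lost regions numbered 48 (2.23%, background 2.70%), and 15 of 17 other autosomes had a higher share. Counts that need only 1 library on a side are larger: without single libraries of pair 4 the gained count ran from 51 to 474, highest without 4_C2 replicate 2, and the lost count from 71 to 220, highest without 4_1 replicate 2.

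In pair 6, 26 of 2139 regions were gained (1.22%, background 0.780%) and 55 were lost (2.57%, background 2.75%). The gained share was above that of each of the other autosomes, where chromosome 9 came nearest at 1.07%, and 10 of 17 other autosomes had a higher lost share. With 2 libraries a side no test of this count was made. Without single libraries of pair 6 the gained count ran from 53 to 167 and the lost count from 93 to 255.

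**Figure D4:**
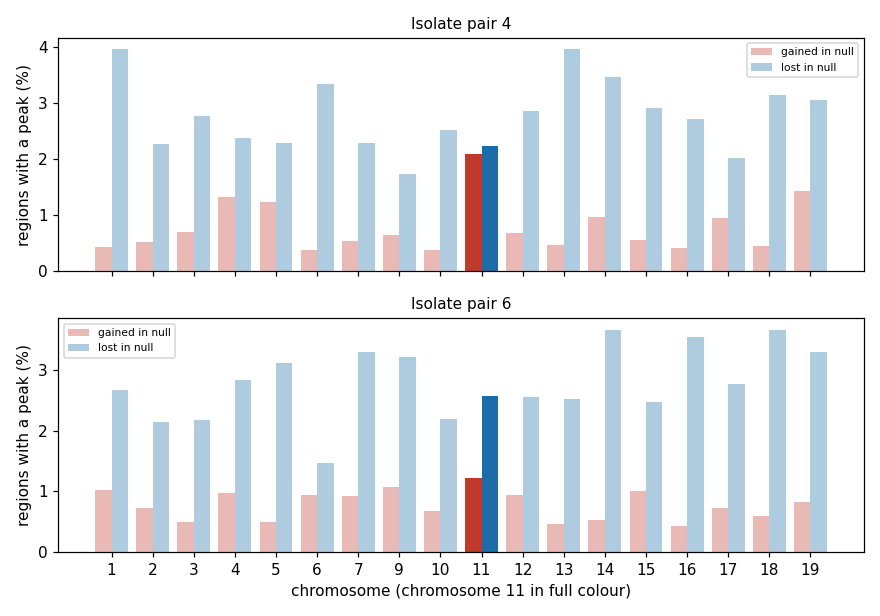
Percent of regions with a peak in a pair that were gained (red) or lost (blue) in the null clone, by autosome except 8, for pair 4 (upper) and pair 6 (lower), with chromosome 11 in full colour. Chromosome 11 reached 2.09% gained in pair 4 and 1.22% in pair 6, and its lost shares of 2.23% and 2.57% lay within the range of the others.

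The gained regions of pair 4 were mostly inside genes. Of the 45, 13 were within 1000 bp of an annotated gene end, 28 were in the body of a gene and 4 overlapped no protein-coding gene, and 6 (13.3%) were at an annotated start. Of all 2729 chromosome 11 regions 1106 were in the body of a gene and 31.6% lay at a start, and of the 960 found in every library 71.7%. The 932 regions of a single library had 599 in a gene body and 3.76% at a start. The regions gained in pair 6 had 15 of 26 and 19.2%, those lost in pair 6 25 of 55 and 12.7%, and those lost in pair 4 16 of 48 and 33.3%. A place inside genes was thus not particular to the pair 4 gains. The median covered length of the 45 regions in 4_C2 was 1560 bp, where the 99 gained regions elsewhere had 1122 bp. In the pair 6 libraries 21 of the 45 had no peak, 2 had one in all 4 libraries and 22 in some. Of the 99 elsewhere, 9 had none and 45 had all 4. They gathered in the gene-rich later part of the chromosome, with 10 between 95 and 100 Mb and 7 between 100 and 105 Mb, bins that held 309 and 274 of all chromosome 11 regions.

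Of the 21 regions gained in 4_C2 and absent from all 6 other libraries, 14 were inside a gene away from its ends. Some of these are named here, picked after their values were seen, and no theme is read from them. The widest, in Slc38a10 (chr11:120117901-120121215), an amino acid transporter family member, was covered over 2996 and 2209 bp in the 4_C2 libraries. In Arhgap23, a RhoGAP gene, the lengths were 2298 and 2620 bp, and in Becn1, which encodes the autophagy protein beclin 1, 2558 and 2149 bp. The Mediator subunit genes Med1 (chr11:98186935-98190122, 2130 and 2006 bp) and Med13 (chr11:86349772-86352408, 2050 and 1215 bp) each had such a region inside the gene. Rptor, which encodes the mTORC1 subunit raptor, had one of 1760 and 1299 bp. Each of these lies away from the gene's ends, and all 6 other libraries were at 0.

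By gene, 1609 protein-coding genes of chromosome 11 were counted as marked when a peak lay within 1000 bp of either end. In all 8 libraries 926 (57.6%) were marked and in none 438 (27.2%), against 45.8% and 37.2% elsewhere. Few genes were gained or lost. In pair 4, 5 were gained (0.441%, background 0.370%) and 14 lost (1.23%, background 1.96%). In pair 6, 4 were gained (0.352%, background 0.295%) and 13 lost (1.15%, background 1.05%). These shares are near the background.

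The genes gained in pair 4 included Irgm2, Il13, Trim58 and Tex19.1. Irgm2 (chr11:58213871-58216703), an interferon-inducible GTPase gene of cell-autonomous immunity, was covered over 2833 and 1330 bp in 4_C2 and had no peak in the 6 other libraries. Il13, a cytokine gene of type 2 immunity, was covered over 2019 and 1051 bp in 4_C2, also with 0 in the others, in a region (chr11:53635615-53637633) that lies just upstream of the start. Trim58, which encodes a ubiquitin ligase of maturing red cells, had 1108 and 1336 bp in 4_C2 and 915 bp in 6_1 replicate 1. Tex19.1, a germ cell gene, went opposite ways in the pairs: 1284 and 1837 bp in 4_C2 against 0 in 4_1, and 1075 and 1202 bp in 6_1 against 0 in 6_C4.

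Next to Irgm2 lies Igtp, another interferon-inducible GTPase gene, which was gained in pair 6. Its region (chr11:58198734-58202046) was covered over 1002 and 606 bp in 4_1, 3313 and 2485 bp in 4_C2, 0 and 0 bp in 6_1, and 962 and 1124 bp in 6_C4. In each pair both null libraries lay above both fx/fx libraries. The other genes gained in pair 6 were Ramp3, which encodes a receptor partner protein (0 in 6_1, 1016 and 1437 bp in 6_C4), Slc47a2, an organic cation exporter gene (1173 and 1102 bp in 6_C4), and Pik3r5, which encodes a regulatory subunit of phosphoinositide 3-kinase (1377 and 1223 bp in 6_C4). Ramp3 and Slc47a2 had no peak in 4_1 and 1 in 4_C2 replicate 1, and Pik3r5 was covered in 4_1 replicate 1 and both 4_C2 libraries.

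The regions present in all 4 fx/fx and no null library numbered 3 on chromosome 11 (0.110%, background 0.0616%), and 0 were found in all 4 null and no fx/fx library. Grb10, an imprinted gene whose product restrains insulin and growth factor receptor signalling, had its region (chr11:12035939-12039310) over the CpG-rich start printed above. It was covered over 2583 and 3346 bp in 4_1 and 1300 and 1351 bp in 6_1, wider in 4_1. Tha1, a threonine aldolase gene, had 1234 and 1319 bp in 4_1 and 1086 and 1189 bp in 6_1 over its start (chr11:117872578-117873912). The region inside Mpp2, a membrane scaffold gene, had 2330 and 1324 bp in 4_1 and 1736 and 1250 bp in 6_1. All 4 null libraries were at 0 at these regions, while the peak at the Mpp2 end itself was present in both null clones (2676 and 1980 bp in 4_C2, 2107 and 2522 bp in 6_C4). The count was 1 with lists cut to the same length, 5 without either 4_1 library, 7 without 4_C2 replicate 1 and 10 without 6_C4 replicate 1.

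Genes lost in pair 4 but covered in pair 6 included Nr1d1, which encodes a repressor of the circadian clock (1573 and 1533 bp in 4_1, 0 in 4_C2, 1206 to 2879 bp in pair 6). Slc2a4, the insulin-responsive glucose transporter gene, had 2230 and 2178 bp in 4_1, 0 in 4_C2 and 1566 to 2371 bp in pair 6. The zinc finger genes Zfp354b, Zfp287 and Zfp750 and the receptor gene Galr2 were also at 0 in both 4_C2 libraries, with 1061 to 1733 bp in 4_1. Kcnj2, an inward rectifier potassium channel gene, had 1610 and 1344 bp in 4_1 and peaks in 2 of 4 libraries of pair 6. Rundc3a was lost in pair 4 (1814 and 1937 bp in 4_1) and narrower in 6_C4 (848 and 734 bp) than in 6_1 (1855 and 2249 bp).

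Genes lost in pair 6 had mixed coverage in pair 4. Ngfr, the low-affinity neurotrophin receptor gene, had 1495 and 3330 bp in 6_1 and 0 in 6_C4, and was present in 1 library each of 4_1 and 4_C2. Bcl6b, a transcriptional repressor gene, had 2500 and 2613 bp in 6_1 and 0 in 6_C4, again with 1 library each in pair 4. Evpl, which encodes the cornified envelope protein envoplakin, and Scn4a, the skeletal muscle sodium channel gene, were likewise covered in both 6_1 and neither 6_C4 library. Ghdc, at 1581 and 1695 bp in 6_1 and 0 in 6_C4, was covered in both 4_C2 libraries.

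**Figure D5:**
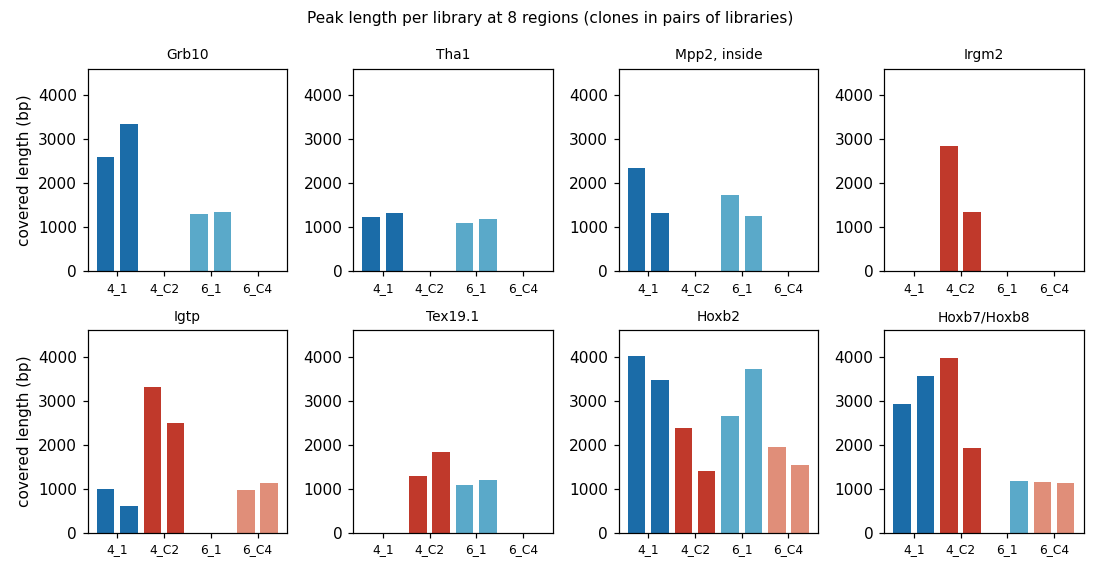
Covered length in bp per library at 8 chromosome 11 regions, with the 2 libraries of a clone side by side and coloured by clone. Grb10, Tha1 and the region inside Mpp2 were at 0 in every null library, Irgm2 was covered in 4_C2 alone, and Igtp was longest in 4_C2 at 3313 and 2485 bp.

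Width was tested region by region. In pair 6, limma over 13130 regions in all 4 lists called 0 at an adjusted p under 0.05 (0% of all tested), and so 0 of the 1168 on chromosome 11. At an unadjusted p under 0.05, 48 chromosome 11 regions were narrower and 22 wider in the null clone, 5.99% against 5.7% of all regions. Without centring the split was 104 narrower and 4 wider, 9.25% against 10.2% of all regions. The lowest p among narrower regions belonged to one inside Spred2, which encodes an inhibitor of RAS signalling (chr11:19986266-19990075). It was covered over 3726 and 3481 bp in 6_1, 1352 and 1316 bp in 6_C4 and 0 in all pair 4 libraries, a fitted difference of -1.29 ± 0.11 on the log2 scale (SE, limma adjusted p = 0.348). Next came Rundc3a at -1.23 ± 0.13 (limma adjusted p = 0.348), the region shared by Tmc6 and Tmc8, genes of transmembrane channel-like proteins, at -1.22 ± 0.15 (limma adjusted p = 0.356) and Znhit3 at -0.79 ± 0.11 (limma adjusted p = 0.385). Among wider regions it was the one at Dhrs13 and Flot2, where 2089 and 2381 bp in 6_1 stood against 2847 and 2846 bp in 6_C4, 0.49 ± 0.11 (limma adjusted p = 0.546). None of these passed. With 2 libraries a side the fit has little power: in a first check on simulated widths it recovered no 2-fold change. A count of 0 thus does not show that widths were alike.

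Over all 8 libraries with isolate pair as a covariate, limma called 0 of 9607 regions (0%) and 0 of 960 on chromosome 11. Pair 4 libraries are in this fit, so its chromosome 11 values are a description. At an unadjusted p under 0.05, 14 were narrower and 78 wider in the null clones, 9.58% against 6.96% of all regions. Without centring 65 were narrower and 6 wider, 7.4% against 12.4% of all regions. The lowest p belonged to Hoxb2, a homeobox gene of hindbrain patterning, with 4013 and 3480 bp in 4_1, 2371 and 1403 bp in 4_C2, 2655 and 3724 bp in 6_1, and 1947 and 1533 bp in 6_C4. Each null library lay below each fx/fx library, and the fitted difference was -0.81 ± 0.14 on the log2 scale (SE, limma adjusted p = 0.698). Within pair 6 alone its log2 change was -0.72 ± 0.19 (SE, limma adjusted p = 0.665). Among wider regions it was the one at Arhgap27 and Plekhm1, at 0.43 ± 0.09 (SE, limma adjusted p = 0.698), and next the one at Rps6kb1, the S6 kinase gene, and Tubd1, at 0.49 ± 0.10 (SE, limma adjusted p = 0.698). At Rps6kb1 the lengths were 3635 and 3275 bp in 4_1, 4406 and 4212 bp in 4_C2, 3956 and 3229 bp in 6_1, and 4904 and 4460 bp in 6_C4, so that each null library lay above each fx/fx library.

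Regions absent from some lists cannot enter a fit on log width without an added constant. With 200 bp added and regions in at least 4 of the 8 lists, or 2 of the 4 of pair 6, limma called 4 of 1396 chromosome 11 regions over 8 libraries (0.287%, and 0.124% of all regions): those of Tha1, Grb10 and Igtp and the one inside Mpp2. This fit holds the pair 4 libraries, and the constant alone supplies the null values at Tha1, Grb10 and Mpp2, so the list is a description and its p-values are not given. In pair 6 the same setting called 75 of 1557 on chromosome 11, or 4.82%, near the 4.37% of all regions. Of these, 74 were at 0 in both libraries of one genotype, where the constant likewise supplies the values.

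Genes of chromatin regulators on chromosome 11 were marked throughout, where 57.6% of all 1609 chromosome 11 genes were marked in all 8 libraries. All 4 genes of the Gcn5 complexes, Kat2a, Tada2a, Usp22 and Atxn7l3, had a peak at an end in all 8 libraries, as did all 19 other chromatin regulators listed, among them Sirt7, Cbx1, Kdm6b, Chd3 and Kat7. Usp22, the ubiquitin protease of SAGA, was covered over 2737 and 2744 bp in 4_1, 6314 and 2667 bp in 4_C2, 2701 and 3779 bp in 6_1, and 2227 and 2456 bp in 6_C4. Only the replicate 1 library of 4_C2 stood out there. Stat3 had the same shape, with 5316 and 2584 bp in 4_C2 and 2357 to 2820 bp in the 6 other libraries. The region of Sirt7 and Mafg (chr11:120623046-120635553), 8883 to 11446 bp, was among the 5 widest of the chromosome. The widest was at Bahcc1, at 11540 and 11289 bp in 4_1, 14216 and 13229 bp in 4_C2, 12963 and 13970 bp in 6_1, and 12687 and 14479 bp in 6_C4. The remaining ones lay at Rara, a retinoic acid receptor gene (7727 to 10768 bp), at Nfe2l1, a stress-response factor gene (8288 to 10511 bp), and at Ube2b and Cdkl3 (7493 to 10337 bp).

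Genes of cell division and translation were equally uniform. All 23 genes of the p53, DNA repair and cell division list had a peak at an end in every library. So had all 8 cytosolic ribosomal protein genes, and 57.6% of all chromosome 11 genes. The Trp53 region, shared with its neighbour Wrap53, ran from 6322 to 9789 bp. At Rpl38 the range was 3165 to 3804 bp and at Med1 2556 to 2720 bp. Of 6 Mediator genes 5 were marked in all libraries, and Med24 lacked a peak at its ends in 4_C2 replicate 2.

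Coverage varied between libraries at developmental genes. Of the 10 genes of the Hoxb cluster, which sets position along the body axis, 1 (Hoxb2) was marked in all 8 libraries, 5 in some and 4 in none. The number marked per library was 4 and 6 in 4_1, 6 and 5 in 4_C2, 3 and 5 in 6_1, and 2 and 4 in 6_C4. At the region of Hoxb7 and Hoxb8 the length was 2926 and 3562 bp in 4_1, 3975 and 1935 bp in 4_C2, 0 and 1184 bp in 6_1, and 1162 and 1130 bp in 6_C4, with all pair 4 libraries above all pair 6 libraries. Hoxb13 had a peak in 3 of 4 pair 4 libraries and 0 of 4 of pair 6. Of 36 developmental transcription factor genes 19 were marked in all 8, 15 in some and 2 in none. Among all 1609 chromosome 11 genes, 926 (57.6%) were marked in all 8, 245 in some and 438 (27.2%) in none. Sox9, a factor of cartilage and neural crest, was marked in 7 libraries and absent from 4_C2 replicate 2.

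Coverage of signalling genes differed by list. Of 24 FGF, RAS and MAP kinase genes 20 were marked in all 8 and 1 in none, and Fgf18, a growth factor gene, lacked a peak in 4_C2 replicate 1 alone. Of 10 Wnt pathway genes 6 were marked in all 8. Among all 1609 chromosome 11 genes 57.6% were marked in all 8 and 27.2% in none, so the Wnt share lay near that of all genes. The Wnt3 and Wnt9b region, at the start of a ligand gene of the primitive streak, had 1926 and 0 bp in 4_1, 0 and 0 bp in 4_C2, 1263 and 1865 bp in 6_1, and 0 and 1050 bp in 6_C4. Of 15 cytokine and growth factor genes 3 were marked in all 8, 6 in some and 6 in none. Lif, the cytokine that holds mouse embryonic stem cells undifferentiated, had a peak at its end in all 4 libraries of pair 6 (1217 to 1501 bp), in 4_C2 replicate 1 (1264 bp) and in neither 4_1 library.

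Several gene clusters of differentiated cells had few peaks or none. No library had a peak at any of the 6 skeletal myosin heavy chain genes or the 11 CC chemokine genes. Of 26 type I keratin genes 22 were unmarked in every library. Krt19, a keratin of simple epithelia, had a peak in 3 pair 6 libraries and none of pair 4. Of 16 globin and blood cell genes 11 were unmarked throughout and 4 marked in all libraries. For Cd68 and Gp1ba among these, the peak lay at the end away from the annotated start. It was in a region over the start of a neighbour, Mpdu1 for Cd68 and Slc25a11 and Rnf167 for Gp1ba. Of 4 imprinted genes, Zrsr1 was marked in every library, Commd1 and Ddc in none at their ends (an annotated inner start of Commd1 lies under the Zrsr1 region), and Grb10 in fx/fx libraries only. Among all 1609 chromosome 11 genes, 57.6% were marked in all 8 libraries and 27.2% in none. No test was made over these lists.

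MicroRNA hairpins gave a smaller set. Of 796 hairpins on the other autosomes except 8, 64 lay under a peak in all 8 libraries, 91 in some and 641 in none. Of 83 hairpins on chromosome 11, 11 lay under a peak in all 8 libraries, 17 in some and 55 in none, and 13 to 22 were covered per library. Of the 17, 4 were picked after their values were seen, as members of known clusters, and their mature sequences are shown from RefSeq with the seed (bases 2 to 8) in capitals. The first pair, miR-132 and miR-212, share a seed and a hairpin cluster, and miR-144 and miR-451a come from a cluster of red blood cell precursors.
mmu-miR-132-3p: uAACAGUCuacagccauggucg
mmu-miR-212-3p: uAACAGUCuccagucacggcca
mmu-miR-144-3p: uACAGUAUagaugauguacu
mmu-miR-451a: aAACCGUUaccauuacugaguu
The hairpins of miR-132 and miR-212 were covered in both libraries of 4_1 and 6_1 and in 1 library each of 4_C2 and 6_C4. The hairpin of miR-144 was covered in 1 library of 4_1, none of 4_C2 and both of 6_1 and 6_C4. The hairpin of miR-451a was covered in 1 library of 4_1, none of 4_C2, both of 6_1 and 1 of 6_C4. At each of these hairpins the libraries of at least 1 clone differed from each other. Other hairpins went other ways: that of miR-6927 was covered in no library of 4_1, both of 4_C2, 1 of 6_1 and both of 6_C4.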

How the data were processed

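ChIP-seq of H3K9ac gave 8 libraries of day 5 embryoid bodies, 2 per clone. The authors deposited a list of peak positions per library, with chromosome, start and end and no height or score. Per the submitters' processing notes, Bowtie 1.1.2, MACS 1.4.2 and mm10 were used, in roles not stated. The sources used here give no peak threshold, control library or filter, and the depth is unknown, so a deeper library could yield more and wider peaks.

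Peaks were merged where they overlapped by at least 1 bp. Coordinates count from 1. Gene spans, promoters and miRNAs came from RefSeq tables of GRCm38.p6, the primary sequence of mm10. Starts were known for 1271 of the 1609 chromosome 11 genes, so both ends of a gene, with 1000 bp either side, were used. Width was the log2 covered length, centred in each library on the median of the other autosomes except 8. The test was limma 3.58.1 (R 4.3.3) with Benjamini-Hochberg adjustment at 0.05, for pair 6 alone and for 8 libraries with isolate pair as covariate, after a check on simulated data. Shares were tested with two-sided exact permutation tests (SciPy 1.17.1). Python 3.11.15, pandas 2.3.3, numpy 2.4.6 and matplotlib 3.10.9 did the rest.

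The chromosome, the 15 gene lists (218 of 231 entries on chromosome 11) and the rule for named genes were chosen with earlier results of these data known. That rule took genes gained or lost at an end, ranked by covered length, regions passing limma or else the 5 lowest p per direction, regions that separate the genotypes fully, up to 5 members per list, the 5 widest regions and Kat2a, Grb10, Hoxb2, Mpp2, Tha1, Trp53, Stat3, Sox9 and Usp22. Other regions named, such as those found in 4_C2 alone, were chosen after their values were seen. Merging across gaps, presence over more than a part of a region, lists of equal length, an added constant, no centring, a replicate block and single libraries left out were tried as alternatives. Some genes that this rule names are not reported here.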

Additional observations from a re-analysis of the deposited data

How the results depend on the processing

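Without single libraries, the gained count on chromosome 11 ran from 51 to 474 in pair 4 and from 53 to 167 in pair 6, and the lost count from 71 to 220 and from 93 to 255; leaving out a library loosens these calls by construction. The chromosome 11 percent of the regions gained in pair 4 ran from 21.0 to 34.2, regions of 4_C2 alone from 22 to 328, and regions of all fx/fx and no null library from 3 to 10. The share difference ran from 0.996 to 2.079 points in pair 4, and the width change from 0.116 to 0.190 in pair 4 and from -0.008 to 0.030 in pair 6. With lists of equal length by width, lost regions numbered 26 in pair 4 and 31 in pair 6, regions of 4_C2 alone 47, and regions of all fx/fx and no null library 1; the cause was not tested. The share difference with lists of equal length was 1.659 points in pair 4 and 0.003 in pair 6. In covered base pairs it was 2.690 points in pair 4 and 0.227 in pair 6. Without centring, the width changes were -0.009 in pair 4, -0.112 in pair 6 and -0.063 for 4_1 minus 6_1, since these values then carry each library's overall peak width. With 200 bp added and regions absent from some lists let in, limma called 75 chromosome 11 regions in pair 6 and 4 over 8 libraries; these choices were changed together, and the part of each was not tested. The share of gains, the 4_C2 and fx/fx counts and the comparison of 4_1 with 6_1 were put through these alternatives after the data were seen.

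Same-numbered libraries of different clones deviated together with correlations of -0.02 to 0.11 over 9607 regions. The highest were within isolate pairs, 0.11 for 4_1 with 4_C2 and 0.06 for 6_1 with 6_C4. These values cannot show whether same-numbered libraries shared a culture or day, so the replicate block was used only as an alternative. With a replicate block limma called 0 chromosome 11 regions in either fit, as without it, and at an unadjusted p under 0.05 it gave 49 narrower and 22 wider regions in pair 6. Depth is unknown for every list, which limits all comparisons of presence and width.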

Other observations

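Coverage at some other chromosome 11 genes is given here by library. Krt19, a keratin gene of simple epithelia, was covered over 1402 bp in 6_1 replicate 2 and 1566 and 1328 bp in 6_C4, and had no peak in any pair 4 library. Cbx1, which encodes a heterochromatin protein, was covered over 5914 and 3126 bp in 4_1, 5781 and 2964 bp in 4_C2, 8947 and 7844 bp in 6_1, and 8707 and 4981 bp in 6_C4, so the last library lay among those of pair 4. Chd3, a chromatin remodeller gene, had 5968 and 5874 bp in 4_1, 6259 and 4636 bp in 4_C2, and 3612 to 4609 bp in the 4 libraries of pair 6. These genes were picked after their values were seen, and no test was made.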
